A study of Rattus norvegicus with 16 samples.

Results

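The genes for a set of colony-stimulating factor (CSF) receptors, for the ligand Csf1 and for 5 transcription factors of myeloid cells were followed across 4 cell populations sorted from cultures of rat olfactory mucosa. The set held 9 genes, Csf1, Csf1r, Csf2ra, Csf2rb, Spi1, Cebpa, Cebpb, Irf8 and Runx1, and was found by taking every array probe whose gene name equalled one of these symbols. That gave 10 probes of 30367 on the array, with 2 for Csf1r and 1 for each other gene. All 9 genes passed the filter on dim probes and were tested among 20571 genes. Olfactory mucosa, the smell-sensing lining of the nose with its connective tissue, was taken from male Fischer rats and cultured. Flow cytometry gave CD90, p75 and TRKA cells from cultures kept under 1 protocol, and TRKA-TGF cells from cultures given transforming growth factor alpha for conditioning, at a purity of 93 to 97% per the labels. CD90 is the surface protein of Thy1 and p75 the neurotrophin receptor of Ngfr, and TRKA is the surface marker as the labels name it. Each population was measured on 4 arrays, labelled as biological replicates 1 to 4. The labels do not say whether equal numbers mark the same animal or culture, so p-values measure the spread between these samples.

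Csf1 binds the receptor tyrosine kinase encoded by Csf1r and keeps macrophages and their precursors alive and dividing. The receptor for granulocyte-macrophage CSF pairs a ligand-binding alpha chain, Csf2ra, with the signalling beta chain Csf2rb. Spi1 encodes PU.1, an ETS-family factor that myeloid precursors need and that binds the Csf1r gene, and it works with C/EBP factors (Cebpa, Cebpb), Irf8 and Runx1 in setting up the myeloid programme. Macrophages are found in the olfactory mucosa, where they take up debris of olfactory neurons.

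The probes below are shown because the results on Csf1r, Csf2rb and Spi1 rest on them. Each is a 60-base oligonucleotide from the array annotation, written 5′ to 3′. On rn4 the upstream Csf1r probe lies at chr18:57093036-57093095 and the downstream one at chr18:57105231-57105932, a span of 702 bases for 60 bases of probe, so that its match is split on the genome. The Csf2rb probe lies at chr7:116270933-116270992 and the Spi1 probe at chr3:75475250-75475309. The array annotation gives no exon for them.
Csf1r upstream probe: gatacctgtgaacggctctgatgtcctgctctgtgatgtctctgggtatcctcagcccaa
Csf1r downstream probe: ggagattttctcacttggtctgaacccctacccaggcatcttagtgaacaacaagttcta
Csf2rb probe: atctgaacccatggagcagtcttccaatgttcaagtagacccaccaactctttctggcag
Spi1 probe: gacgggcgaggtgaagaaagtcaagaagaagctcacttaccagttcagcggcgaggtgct

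The 250 bases before the gene start were searched for 5 short motifs on both strands, because 5 of the 9 genes encode factors that bind such motifs. They were taken from RefSeq on GRCr8, where 6 of the 9 genes had an entry (Csf1r, Csf2ra, Cebpa, Cebpb, Irf8 and Runx1). The core GAGGAA bound by PU.1 (TTCCTC on the other strand) was present in 2 of 6, at 229 to 224 and again at 95 to 90 bases before the start of Csf1r and at 41 to 36 bases before that of Csf2ra. Of 33469 RefSeq promoters, 23.3% held it. The RUNX core TGTGGT, the C/EBP core TTGCNNAA, the IRF core and the ETS-IRF composite were in 0 of 6, against 14.5%, 9.22%, 3.41% and 2.48% of all promoters. The composite and the IRF core can overlap. A match describes the letters only. The 4 stretches below are those of both receptors with an entry, of Irf8 and of Cebpb, with PU.1 cores in capitals and GC contents of 52%, 65.6%, 70.4% and 80% in that order.
Csf1r, chr18:56834129-56834378, plus strand: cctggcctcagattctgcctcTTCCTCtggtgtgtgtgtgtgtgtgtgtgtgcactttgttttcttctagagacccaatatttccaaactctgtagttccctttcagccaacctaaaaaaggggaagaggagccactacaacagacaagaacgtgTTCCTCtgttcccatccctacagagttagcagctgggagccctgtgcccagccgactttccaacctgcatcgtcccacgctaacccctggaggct
Csf2ra, chr14:118118-118367, minus strand: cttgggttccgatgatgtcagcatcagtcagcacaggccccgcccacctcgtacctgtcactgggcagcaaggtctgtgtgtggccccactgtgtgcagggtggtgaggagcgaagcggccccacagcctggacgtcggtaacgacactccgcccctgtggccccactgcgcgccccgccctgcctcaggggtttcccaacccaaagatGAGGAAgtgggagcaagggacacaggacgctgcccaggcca
Irf8, chr19:65699034-65699283, plus strand: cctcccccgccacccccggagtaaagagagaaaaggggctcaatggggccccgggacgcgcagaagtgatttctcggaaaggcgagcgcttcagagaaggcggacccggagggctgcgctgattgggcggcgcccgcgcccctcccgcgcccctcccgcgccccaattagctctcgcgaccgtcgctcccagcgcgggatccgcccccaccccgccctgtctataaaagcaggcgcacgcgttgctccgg
Cebpb, chr3:176816755-176817004, plus strand: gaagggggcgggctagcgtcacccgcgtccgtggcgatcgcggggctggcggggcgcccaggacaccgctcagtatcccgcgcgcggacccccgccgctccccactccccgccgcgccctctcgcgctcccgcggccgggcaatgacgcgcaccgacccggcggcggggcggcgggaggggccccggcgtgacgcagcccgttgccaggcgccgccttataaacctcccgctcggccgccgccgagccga

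Levels are on a log2 scale, as the processed signal relative to its array's 75th percentile, so that 0 is that percentile. Differences are the first population minus the second in a limma fit to all 16 arrays, with its standard error (SE), and a gene was called at a Benjamini-Hochberg adjusted p under 0.05 over all 20571 genes. The TRKA arrays were the dimmest, with 51.4 to 57.5% of spots well above background and a median processed signal of 22.8 to 39.2, against 66.4 to 72.4% and 133 to 219 on the other 12 arrays. TRKA replicates correlated at r = 0.736 to 0.761 across probes and those of the other populations at 0.835 to 0.908. Slide and scan split the populations: p75 and TRKA lay on slide 1, CD90 and TRKA-TGF on slide 2, each population in a row of its own. The comparison of TRKA with p75 and that of TRKA-TGF with CD90 thus ran within a slide, where group and row cannot be told apart. The remaining 4 crossed slides, so that slide and population cannot be told apart. Thy1 and Ngfr followed the sort (3.44 ± 0.29 in CD90 and 3.16 ± 0.24 in p75, SD, n = 4). Comparisons that share a population share its arrays, so their values stand side by side and are not independent.

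Markers of several cell types differed between the populations. Macrophage markers were highest in both TRKA populations, as Csf1r and Csf2ra were, whereas fibroblast markers were highest in CD90. The summed signal of 12 macrophage markers, each in multiples of the array's 75th percentile, was 528 to 685 on TRKA arrays, 213 to 233 on TRKA-TGF arrays, 19.8 to 36.3 on CD90 arrays and 6.32 to 9.56 on p75 arrays. All 12 were well above background on every TRKA array, Cd163 on no TRKA-TGF array and Ptprc on no p75 array. Neutrophil markers (7 genes) summed to 0.068 to 7.18 in TRKA, 0.0611 to 0.236 in TRKA-TGF, 0.0528 to 0.0935 in CD90 and 0.0372 to 0.0635 in p75, with Mpo, Elane, Cxcr2 and Ltf well above background on no array and S100a8 on 3 TRKA arrays only. Mast cell markers (6 genes) summed to 0.747 to 7.77 in TRKA, 0.19 to 0.454 in TRKA-TGF, 0.152 to 1.13 in CD90 and 0.101 to 0.295 in p75, with Cpa3, Ms4a2 and Cma1 well above background on no array and Hdc on 3 TRKA arrays only. Fibroblast markers (8 genes) summed to 460 to 526 in CD90, 195 to 212 in p75, 106 to 152 in TRKA and 4.33 to 14.7 in TRKA-TGF, with Lum and Dcn well above background on no TRKA array. Osteoclast markers (4 genes on the array) summed to 2.72 to 7.45 in TRKA, 0.396 to 1.07 in TRKA-TGF, 0.132 to 1.10 in CD90 and 0.147 to 0.61 in p75. Ctsk and Calcr were well above background on no TRKA array. Glial markers (7 genes) summed to 62.5 to 76.9 in p75 and to at most 2.43 elsewhere. These populations were measured in bulk, so fewer cells of a type and less RNA per cell cannot be told apart. The part of these markers in the results that follow was not tested.

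**Figure D1:**
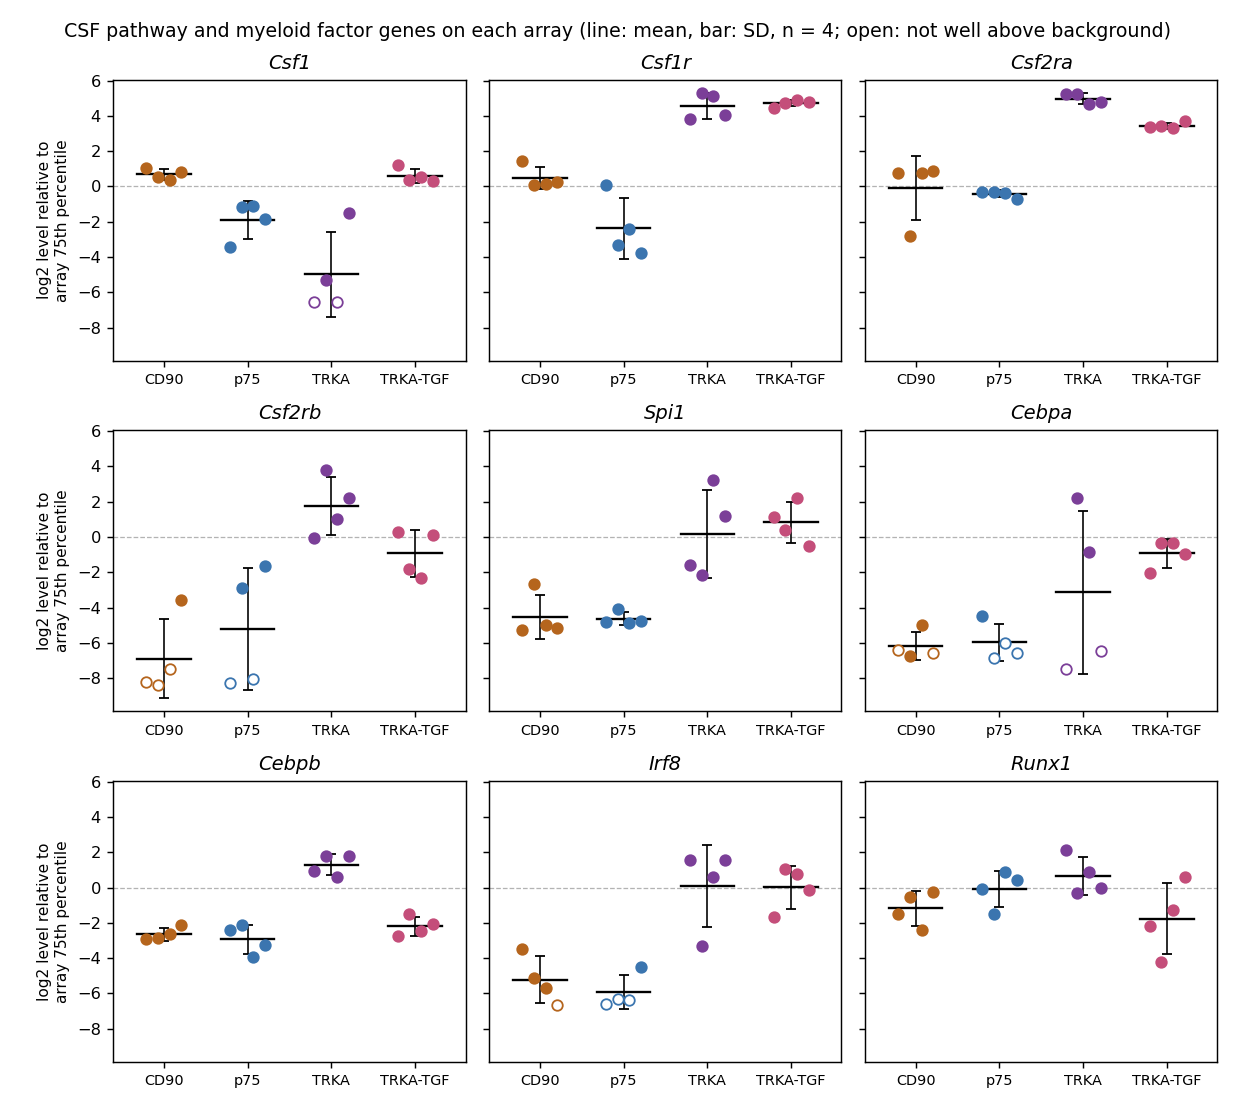
Level of each of the 9 genes on each of the 16 arrays, as log2 processed signal relative to the array's 75th percentile (vertical axis), by population. Points are arrays in replicate order, open where not well above background, lines are means and bars 1 SD (n = 4); Csf1r is shown by its downstream probe, with all TRKA and TRKA-TGF points between 3.83 and 5.31 and all CD90 and p75 points at 1.44 or below.

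Csf1r, Csf2ra, Spi1 and Irf8 stood far higher in both TRKA populations than in CD90 or p75 cells, Cebpb stood higher in TRKA than in the 3 other populations, and Csf1 was lowest in TRKA. Against p75 on the same slide, 6 of the 9 genes were called higher and 1 lower in TRKA. Of all genes tested, 35.7% were called in that comparison, 18.8% higher and 16.9% lower. Against CD90 on the same slide, 6 were called higher and 0 lower in TRKA-TGF, where 14.9% of all genes were called (7.72% higher and 7.19% lower). The median difference over the 9 genes was 4.80 and 4.23, beside −0.01 and 0.15 over all genes tested.

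Csf1, the ligand, was measured by a probe printed at 10 spots (Entrez 78965, rn4 chr2:203292994-203293053). Its level was 1.05, 0.53, 0.35 and 0.83 in CD90 replicates 1 to 4 and −3.44, −1.14, −1.13 and −1.86 in p75. In TRKA it was −6.57, −5.31, −6.55 and −1.51, with replicates 1 and 3 not well above background, and in TRKA-TGF 1.20, 0.39, 0.52 and 0.31. All 8 CD90 and TRKA-TGF arrays, on slide 2, lay above all 8 p75 and TRKA arrays, on slide 1. Slide and population cannot be told apart in this split. TRKA replicate 4 lay among the p75 arrays and at least 3.79 log2 units above the other TRKA arrays. Across slides the difference was −5.68 ± 0.91 (SE) for TRKA versus CD90, adjusted p = 0.000235, and 5.59 for TRKA-TGF versus TRKA, adjusted p = 0.000464. TRKA versus p75 was called lower at −3.09 with an adjusted p of 0.0164, a call that ended under 4 alternatives, among them quantile normalization (−1.82, adjusted p = 0.0872) and normexp background correction (−1.21, adjusted p = 0.0624). With normexp the first 2 differences were −3.55 and 3.47 and were still called. TRKA-TGF and CD90, on the same slide, differed by −0.08 with a 95% interval of −2.03 to 1.87. CD90 versus p75 (2.58, adjusted p = 0.12) and TRKA-TGF versus p75 (2.5, adjusted p = 0.0859) were not called, although neither pair of groups overlapped, and both were called under 5 alternatives.

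Of the other ligands of these receptor families that were tested, only Csf3 was called. Il34, the second ligand of the Csf1 receptor, had means of −4.02, −4.48, −3.89 and −2.64 in CD90, p75, TRKA and TRKA-TGF and was called in no comparison, and neither was Il5. The Il34 level ran from −6.88 to 0.17 over the CD90 arrays. Il5 was well above background on 2, 3, 1 and 3 arrays of CD90, p75, TRKA and TRKA-TGF. The missing calls of these dim genes do not show equal levels. Csf2 and Il3 did not pass the filter on dim probes. Csf3, the granulocyte factor, was called higher than in p75 in TRKA (0.92) and in TRKA-TGF (0.65). The TRKA call ended under quantile normalization (0.18), and both calls ended with the percentile taken over probes detected on all arrays (0.03 and 0.52). With a replicate block the TRKA-TGF call ended as well (adjusted p = 0.0657).

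Csf1r, the receptor of Csf1 (Entrez 307403), was represented by its downstream probe. The level was 1.44, 0.11, 0.14 and 0.25 in CD90, 0.09, −3.34, −2.43 and −3.76 in p75, 3.83, 5.31, 5.12 and 4.06 in TRKA and 4.47, 4.72, 4.88 and 4.79 in TRKA-TGF. All 8 TRKA and TRKA-TGF arrays lay above all CD90 arrays, which lay above all p75 arrays. Within a slide, TRKA exceeded p75 by 6.94 ± 0.68 (SE; 123-fold, adjusted p = 3.53e-06) and TRKA-TGF exceeded CD90 by 4.23 (18.8-fold, adjusted p = 0.00064). Across slides the difference was 4.10 for TRKA versus CD90 (adjusted p = 0.000335) and 7.07 for TRKA-TGF versus p75 (adjusted p = 5.63e-06). The TRKA populations differed by 0.13, with a 95% interval of −1.34 to 1.60. Of the 9 genes, only Csf1r was called between CD90 and p75 (2.84, adjusted p = 0.0205), where 7.25% of all genes were called and 3.68% were called higher in CD90 and 3.57% lower. That call ended with only these 2 groups in the fit (adjusted p = 0.0912) and without CD90 replicate 1 (2.52), p75 replicate 2 (2.51), p75 replicate 3 (2.81) or p75 replicate 4 (2.37).

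The upstream Csf1r probe gave the same direction in all 6 comparisons but fewer calls. It read 0.73, −0.31, −0.74 and 0.74 in CD90, −0.72, −3.65, −2.20 and −3.95 in p75, 1.80, 1.06, −0.51 and 3.6 in TRKA and 3.48, 3.01, 3.30 and 3.43 in TRKA-TGF. In a fit over all probes TRKA exceeded p75 by 4.11 (adjusted p = 0.00127) and TRKA-TGF exceeded CD90 by 3.20 (adjusted p = 0.0155), whereas TRKA versus CD90 (1.38, adjusted p = 0.211) and CD90 versus p75 (2.73, adjusted p = 0.0594) were not called. TRKA-TGF exceeded p75 by 5.93 (adjusted p = 0.000144). Between TRKA-TGF and TRKA the upstream probe differed by 1.82 (95% interval 0.07 to 3.57, adjusted p = 0.119), against the 0.13 of the downstream probe. The probes start 12195 bases apart on rn4. Their gap, downstream minus upstream, was 0.38 ± 0.61 in CD90 and 0.27 ± 0.43 in p75 (SD, n = 4). In TRKA-TGF the gap was 1.41 ± 0.31, and in TRKA it was 2.02, 4.25, 5.64 and 0.47 in replicates 1 to 4. The TRKA arrays thus spread over 5.17 log2 units in this gap, so that the 2 probes disagreed from one TRKA array to another. The size of the gap on 1 array has no meaning in itself, since probes differ in brightness. Neither the cause of the spread nor the difference of the gap between populations was tested.

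**Figure D2:**
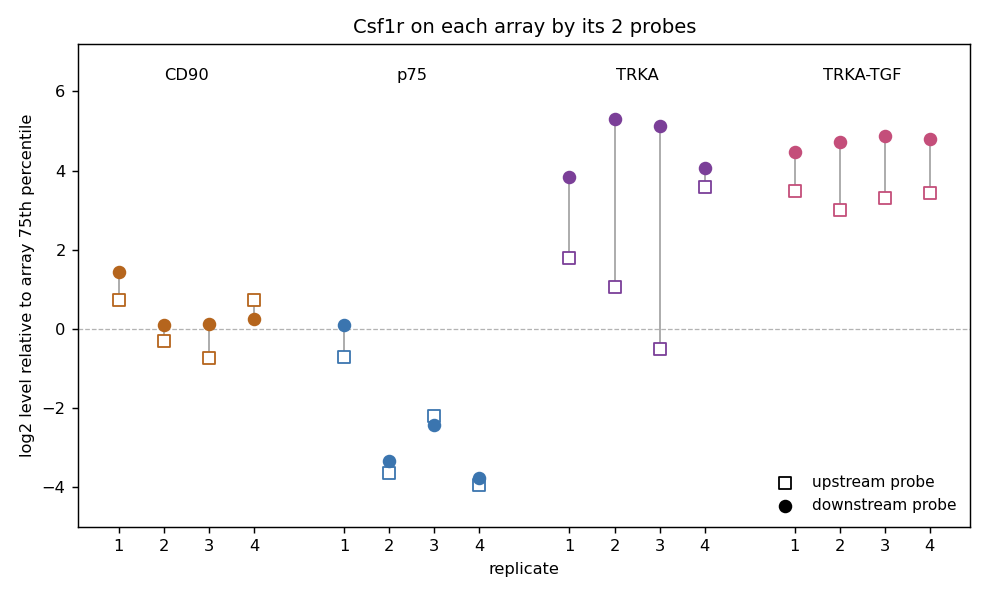
Csf1r on each array by its upstream probe (open squares) and its downstream probe (filled circles), as log2 level relative to the array's 75th percentile, with replicates 1 to 4 of each population along the horizontal axis. Grey lines join the probes of an array; the gap is 5.64 in TRKA replicate 3 and 0.47 in TRKA replicate 4, and lies between −0.49 and 0.88 on all CD90 and p75 arrays.

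Csf2ra, the alpha chain of the granulocyte-macrophage CSF receptor (Entrez 652957, no rn4 position in the array annotation), was tightly grouped in the TRKA populations. Its level was 5.22, 5.23, 4.67 and 4.80 in TRKA and 3.34, 3.45, 3.32 and 3.69 in TRKA-TGF. In CD90 it was 0.76, −2.79, 0.78 and 0.89, and in p75 −0.29, −0.29, −0.37 and −0.70. All TRKA arrays lay above all TRKA-TGF arrays, and these above all CD90 and p75 arrays, with CD90 replicate 2 far below the rest of its group. TRKA exceeded p75 by 5.39 ± 0.63 (SE; 42.1-fold, adjusted p = 1.82e-05) and CD90 by 5.07 (adjusted p = 3.06e-05). TRKA-TGF exceeded CD90 by 3.54 (11.6-fold, adjusted p = 0.00142) and p75 by 3.86 (adjusted p = 0.000666). Without CD90 replicate 2 the differences from CD90 were 4.17 and 2.64, both still called, and CD90 versus p75 turned from 0.32 (adjusted p = 0.891) to a called 1.22 (adjusted p = 0.00619). TRKA-TGF stood 1.53 below TRKA without being called (adjusted p = 0.0929, 95% interval of the difference −2.90 to −0.17). That fit shares its spread with CD90, whose SD was 1.80, beside 0.29 in TRKA and 0.17 in TRKA-TGF. The difference was called with only these 2 groups in the fit (adjusted p = 0.00704) and without CD90 replicate 2 (adjusted p = 0.000261).

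Csf2rb, the beta chain (Entrez 171081), was well above background on all TRKA and TRKA-TGF arrays, but on only 1 CD90 and 2 p75 arrays. In CD90 it read −8.19, −8.36, −7.45 and −3.55, with replicate 4 alone well above background, and in p75 −8.27, −2.87, −8.02 and −1.64, with replicates 2 and 4 well above background. In TRKA it was −0.04, 3.83, 1.01 and 2.20 and in TRKA-TGF 0.30, −1.82, −2.30 and 0.09. Every TRKA array lay above every CD90 and p75 array, and TRKA-TGF overlapped p75. TRKA exceeded p75 by 6.95 ± 1.55 (SE, adjusted p = 0.00306) and CD90 by 8.64 (adjusted p = 0.000603), the latter 5.37 with normexp. TRKA-TGF exceeded CD90 by 5.96 (adjusted p = 0.018), or 2.83 with normexp, and the call ended without CD90 replicate 1, CD90 replicate 2, TRKA-TGF replicate 1 or TRKA-TGF replicate 4 (5.47 to 5.62, adjusted p 0.0525 to 0.0544). TRKA-TGF versus p75 (4.27, adjusted p = 0.0867) and TRKA-TGF versus TRKA (−2.68, adjusted p = 0.229) were not called. The first was called with a replicate block (adjusted p = 0.0451), with array weights (4.48, adjusted p = 0.0259) and without p75 replicate 4 (5.46, adjusted p = 0.0284), and the second with normexp (−2.54, adjusted p = 0.0359).

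The remaining receptors of the list were low or variable. Csf3r, Il3ra and Flt3, receptors for granulocyte CSF, interleukin 3 and the Flt3 ligand, were called in no comparison. Kit, the stem cell factor receptor, was higher in TRKA than in p75 (2.30, adjusted p = 0.00706), a call lost with the percentile over probes detected on all arrays (1.41, adjusted p = 0.068). Il5ra did not pass the filter.

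Spi1, the gene of PU.1 (Entrez 366126), was well above background on all 16 arrays. It read −5.26, −2.65, −5.0 and −5.14 in CD90 and −4.82, −4.10, −4.85 and −4.75 in p75. In TRKA it was −1.57, −2.16, 3.21 and 1.22 and in TRKA-TGF 1.16, 0.42, 2.22 and −0.48. The TRKA arrays spread over 5.38 log2 units, yet all of them lay above all CD90 and p75 arrays. TRKA exceeded p75 by 4.80 ± 1.03 (SE; 27.9-fold, adjusted p = 0.00227) and TRKA-TGF exceeded CD90 by 5.35 (40.6-fold, adjusted p = 0.00243). Across slides TRKA exceeded CD90 by 4.69 (adjusted p = 0.00268) and TRKA-TGF exceeded p75 by 5.46 (adjusted p = 0.00192). The TRKA populations differed by 0.66 (95% interval −1.55 to 2.87), and CD90 and p75 by 0.11, which was −0.51 without CD90 replicate 2.

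Irf8, an interferon regulatory factor of monocytes and dendritic cells (Entrez 292060, rn4 chr19:51116671-51116730), followed a like order. Its level was 1.54, −3.33, 0.60 and 1.58 in TRKA and −1.64, 1.07, 0.79 and −0.11 in TRKA-TGF. In CD90 it was −3.47, −5.12, −5.71 and −6.63, the last not well above background, and in p75 −6.58, −6.29, −6.39 and −4.48, with replicate 4 alone well above background. TRKA replicate 2 lay 3.93 log2 units below the next TRKA array and just above the highest CD90 array. TRKA exceeded p75 by 6.03 ± 1.05 (SE, adjusted p = 0.000464), a difference from a mean that rests on 1 p75 array well above background, and CD90 by 5.33 (adjusted p = 0.0012). TRKA-TGF exceeded CD90 by 5.26 (adjusted p = 0.00314) and p75 by 5.96 (adjusted p = 0.00113), or 3.47 and 3.92 with normexp. TRKA-TGF versus TRKA was −0.07 (95% interval −2.32 to 2.18), and 0.69 with the percentile over probes detected on all arrays.

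Cebpb, a C/EBP factor active in macrophages and in inflammatory responses (Entrez 24253, rn4 chr3:158827761-158827820), set the TRKA arrays apart from all others. Its level was 0.96, 1.81, 0.63 and 1.78 in TRKA, against −2.73, −1.48, −2.48 and −2.09 in TRKA-TGF. In CD90 it was −2.93, −2.85, −2.64 and −2.12 and in p75 −2.43, −2.10, −3.93 and −3.23. The lowest TRKA array was 2.11 log2 units above the highest array of the other populations, which overlapped one another. TRKA exceeded p75 by 4.22 ± 0.43 (SE; 18.6-fold, adjusted p = 5.34e-06) and CD90 by 3.93 (adjusted p = 1.06e-05), or 3.33 and 2.95 with the percentile over probes detected on all arrays. TRKA-TGF stood 11.2-fold below TRKA (−3.49, adjusted p = 6.18e-05) and differed from CD90 by 0.44 (95% interval −0.49 to 1.37). The Cebpb differences of TRKA from p75 and from CD90 stayed called under all 12 alternatives that kept every array.

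Cebpa, the C/EBP factor needed for granulocyte and monocyte precursors (Entrez 24252, rn4 chr1:87627393-87627452), was dim on many arrays. In TRKA it read −7.48, 2.22, −0.83 and −6.47, with replicates 1 and 4 not well above background, and in TRKA-TGF −2.06, −0.33, −0.36 and −0.97. In CD90 it was −6.40, −6.76, −4.99 and −6.57, with replicates 2 and 3 well above background, and in p75 −4.49, −6.84, −5.99 and −6.56, with replicate 1 alone well above background. The TRKA-TGF arrays all lay above the CD90 and p75 arrays, and the TRKA arrays lay on both sides of them. TRKA-TGF versus CD90 was called (5.25 ± 1.63 SE, adjusted p = 0.0444), but not with a replicate block (adjusted p = 0.0538), without the filter on dim probes (adjusted p = 0.0532) or in 12 of the 16 fits that left out 1 array. It stayed called under 10 of 12 alternatives that kept every array (adjusted p down to 0.000486) and without any 1 TRKA replicate. The shared spread includes TRKA, whose SD was 4.62, beside 0.81 in both TRKA-TGF and CD90. TRKA versus p75 (2.83, adjusted p = 0.196), TRKA versus CD90 (3.04, adjusted p = 0.17) and TRKA-TGF versus p75 (5.04, adjusted p = 0.0531) were not called, and neither was TRKA-TGF versus TRKA (2.21, adjusted p = 0.351). Leaving out 1 array moved TRKA versus p75 between 1.04 and 4.27 and TRKA versus CD90 between 1.25 and 4.48, and both were called without TRKA replicate 1 (adjusted p = 0.0375 and 0.0309). TRKA versus CD90 was also called under quantile normalization and with the authors' deposited values (3.72 in both), and TRKA-TGF versus TRKA without TRKA replicate 2 (4.00, adjusted p = 0.0326). TRKA-TGF versus p75 was called under 7 of 12 alternatives that kept every array, from 3.02 with normexp to 5.12 with array weights, and without any 1 of the 4 TRKA replicates. With normexp TRKA-TGF versus CD90 was 2.90 and still called. CD90 and p75 differed by −0.21, or 0.12 with normexp.

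Runx1, a factor of blood formation (Entrez 50662, rn4 chr11:32623591-32623650), was well above background on all 16 arrays and called in no comparison. It read −1.48, −0.53, −2.42 and −0.26 in CD90, −0.11, −1.51, 0.86 and 0.41 in p75, 2.12, −0.30, 0.88 and −0.01 in TRKA and −2.17, −4.23, −1.28 and 0.62 in TRKA-TGF. All 4 populations overlapped. The widest difference was TRKA-TGF versus TRKA at −2.43 (adjusted p = 0.0646, 95% interval −4.40 to −0.47), and TRKA versus p75 was 0.76, or −0.13 with the percentile over probes detected on all arrays.

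**Figure D3:**
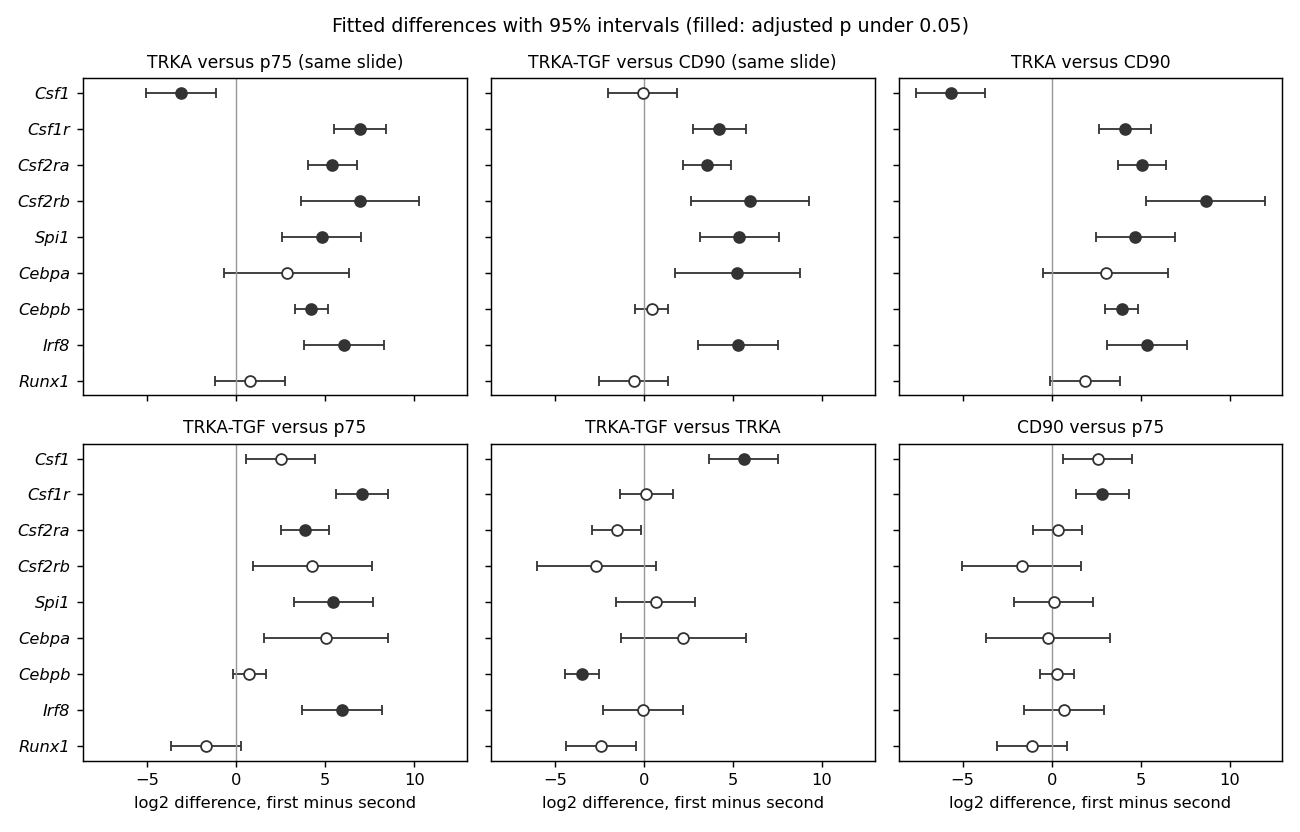
Fitted differences of the 9 genes in the 6 comparisons, on a log2 scale as first population minus second, with 95% intervals from limma and filled points where the adjusted p was under 0.05. Filled points number 7 for TRKA versus p75 and for TRKA versus CD90, 6 for TRKA-TGF versus CD90, 4 for TRKA-TGF versus p75, 2 for TRKA-TGF versus TRKA and 1 for CD90 versus p75.

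Counted over the 6 comparisons, 24 of 27 calls fell in the 4 that set a TRKA population against p75 or CD90. Of all genes, 35.7% and 34.9% were called for TRKA versus p75 and CD90, and 15.1% and 14.9% for TRKA-TGF. The shares were 26.4% for TRKA-TGF versus TRKA and 7.25% for CD90 versus p75. The comparisons share arrays, and the genes were chosen with earlier results of these data known. The pooled count is thus no result about the 9 genes by itself, and the shares beside those of all genes are a description. TRKA versus CD90 gave 6 genes higher (Csf1r, Csf2ra, Csf2rb, Spi1, Cebpb, Irf8) and Csf1 lower, beside 34.9% of all genes called (18.3% higher, 16.6% lower), with a median of 4.10 over the 9 genes and −0.09 over all genes. TRKA-TGF versus p75 gave 4 higher (Csf1r, Csf2ra, Spi1, Irf8) and 0 lower, beside 15.1% of all genes (7.97% higher and 7.15% lower), with medians of 4.27 and 0.14. TRKA-TGF versus TRKA gave Csf1 higher and Cebpb lower, 2 of 9 genes, beside 26.4% of all genes (13.5% higher, 12.9% lower), with medians of −0.07 and 0.19. In that last comparison the share of the 9 genes called was near the background share. CD90 versus p75 had a median of 0.29 over the 9 genes and 0.05 over all genes.

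The groups of 4 arrays did not overlap for 6 of the 9 genes in TRKA versus p75, beside 31.5% of all genes, and for 7 in TRKA versus CD90, beside 30.0%. For TRKA-TGF the count was 6 against CD90 (28.6% of all genes), 6 against p75 (28.8%) and 3 against TRKA (26.4%), namely Csf1, Csf2ra and Cebpb. Between CD90 and p75 it was 2, Csf1 and Csf1r, beside 19.0%.

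Other genes of CSF signalling and of the myeloid programme, 60 in a list that excludes the 9, were described in the same fit. The list was chosen with earlier results of these data known, so its shares beside those of all genes are a description and no test. Of these, 58 were on the array and 53 were tested, Irf4 and Gfi1 being the transcription factors that did not pass the filter on dim probes. The list gave 24 genes higher and 7 lower in TRKA versus p75 (median 1.68), or 58.5% called beside 35.7% of all genes, and 20 and 6 in TRKA versus CD90 (0.81), or 49.1% beside 34.9%. It gave 16 and 3 in TRKA-TGF versus CD90 (1.06), or 35.8% beside 14.9%, and 18 and 4 in TRKA-TGF versus p75 (1.27), or 41.5% beside 15.1%. In TRKA-TGF versus TRKA it gave 6 and 7 (−0.27) and in CD90 versus p75 3 and 1 (0.54), where the shares of 24.5% and 7.55% were near those of all genes, 26.4% and 7.25%. Of 19 signalling genes, 11 were higher and 0 lower in TRKA versus p75, where 18.8% of all genes were higher, and 10 higher and 0 lower in TRKA-TGF versus CD90, where 7.72% were. In TRKA-TGF versus TRKA 1 was higher and 2 were lower. The 27 transcription factors went both ways, with 11 higher and 7 lower in TRKA versus p75, 6 and 3 in TRKA-TGF versus CD90 and 5 and 5 in TRKA-TGF versus TRKA.

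Among signalling genes, Ptpn6, the phosphatase SHP-1 that damps receptor signalling, was higher by 4.52 in TRKA-TGF versus CD90. Dok2, a docking protein for tyrosine kinases, was higher by 10.01 in TRKA-TGF versus p75, or 6.54 with normexp, and by 4.37 in CD90 versus p75, or an uncalled 1.70 with normexp. Dok2 was well above background on 1 p75 array only, so that the size of both differences rests on signal near background. Grb2, the adaptor that links receptors to Ras, was higher by 2.18 in TRKA versus p75, 2.62 in TRKA versus CD90 and 1.53 in TRKA-TGF versus CD90, all of which were lost with the mean of its probes (0.65, 1.02 and 1.48). Its difference between TRKA-TGF and TRKA, −1.10 by the brightest probe, was 0.46 by that mean and an uncalled −0.25 under quantile normalization, under which the first 2 were 1.22 and 1.54 and still called. Stat3 was lower in TRKA-TGF than in TRKA (−1.64, adjusted p = 7.87e-05), or −0.88 with the percentile over probes detected on all arrays (adjusted p = 0.00666). Jak2, a kinase that the Csf2rb chain binds, was lower in TRKA than in CD90 (−2.15, adjusted p = 0.00396).

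Among transcription factors, Maf, a factor of mature macrophages, was higher in TRKA than in p75 by 3.90 (adjusted p = 8.05e-07), and in TRKA-TGF than in p75 by 2.93. Maf was also higher in CD90 than in p75 (1.29, adjusted p = 0.0279), a call lost with a replicate block (adjusted p = 0.0663) and with only these groups in the fit (adjusted p = 0.0842). Id2, an inhibitor of helix-loop-helix factors, was 5.74 higher in CD90 than in p75, or 3.09 with normexp, and was well above background on 1 p75 array only. Zeb2, a zinc-finger repressor, was higher than in CD90 by 2.69 in TRKA and 1.81 in TRKA-TGF and was called at −1.94 in CD90 versus p75. It was −0.88 in TRKA-TGF versus TRKA (adjusted p = 0.0175), and −0.04 under quantile normalization. Egr1, an immediate early factor, had the smallest adjusted p of the list between the TRKA populations, at 4.18 ± 0.25 in TRKA and −0.91 ± 0.10 in TRKA-TGF (−5.09, adjusted p = 1.18e-09). Against p75 and CD90 it was higher in TRKA (2.98 and 2.44) and lower in TRKA-TGF (−2.11 and −2.65).

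Gata2, a factor of blood progenitors and mast cells, was lower than in p75 and CD90 in TRKA (−4.32 and −4.51) and in TRKA-TGF (−4.24 and −4.43), each with an adjusted p of at most 1.55e-05. Runx2, the osteoblast relative of Runx1, was well above background on 1 TRKA array. It was lower in TRKA than in p75 (−7.81, or −4.74 with normexp) and CD90 (−5.40, or −2.49 with normexp) and in TRKA-TGF than in p75 (−3.46, adjusted p = 0.0252), and it was 4.35 higher in TRKA-TGF than in TRKA, or an uncalled 1.67 with normexp. Klf4 was lower in TRKA than in CD90 (−5.72) and p75 (−3.40, lost under quantile normalization with an adjusted p of 0.0734) and 6.53 higher in TRKA-TGF than in TRKA (adjusted p = 0.000396). Cebpd was lower in TRKA than in p75 (−3.18, adjusted p = 0.000323) and 1.95 higher in TRKA-TGF than in TRKA, or 1.28 without a call under quantile normalization. Elf1, an ETS factor, was 2.86 higher in TRKA-TGF than in TRKA (adjusted p = 0.0248). Etv6, an ETS-family repressor, was lower in TRKA-TGF than in CD90 (−5.67, adjusted p = 0.0267). Nr4a1, an orphan nuclear receptor, was well above background on no TRKA-TGF array and lower there than in p75 (−4.09, adjusted p = 0.0196). With each TRKA-TGF value raised to at least its array's lowest signal well above background, it was 11.9-fold lower. That figure holds for the processed signal only, since normexp gave −1.44.

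Several of these differences were smaller by over 1.5 times under another setting while still called. With normexp Gata2 was −2.53 and −2.68 in TRKA and −2.80 and −2.95 in TRKA-TGF against p75 and CD90, and Klf4 was −1.38 in TRKA versus p75, −3.50 in TRKA versus CD90 and 4.28 in TRKA-TGF versus TRKA. Etv6 was −3.73 in TRKA-TGF versus CD90 and Nr4a1 −1.44 in TRKA-TGF versus p75 with the same correction. Under quantile normalization Egr1 was 1.54 and Zeb2 1.62 in TRKA versus CD90.

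Of the 46 differences that the naming rule took from this list, 8 lost their call in at least 1 fit that left out an array. Csf3 in TRKA-TGF versus p75 lost it in 11 of 16 such fits (0.61 to 0.69). For CD90 versus p75, Dok2 lost its call without CD90 replicate 1 or 3 or p75 replicate 1 or 4 (3.86 to 4.22), and Maf without CD90 replicate 2, 3 or 4 or p75 replicate 2 or 3 (1.09 to 1.32). Klf4 in TRKA versus p75 lost it without p75 replicate 1 or TRKA replicate 2 or 3 (−3.14 to −2.54), and Elf1 in TRKA-TGF versus TRKA without TRKA replicate 2 or 4 or TRKA-TGF replicate 1, 2 or 3 (2.21 to 2.87). In TRKA-TGF versus p75, Nr4a1 lost it without p75 replicate 4 or TRKA-TGF replicate 2 or 3 (−3.95 to −3.76), and Runx2 without p75 replicate 1, 2 or 4 or TRKA-TGF replicate 1, 2 or 4 (−3.46 to −3.07). Etv6 in TRKA-TGF versus CD90 lost it without CD90 replicate 1, 2, 3 or 4 or TRKA-TGF replicate 1 or 2 (−5.73 to −4.71).

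**Figure D4:**
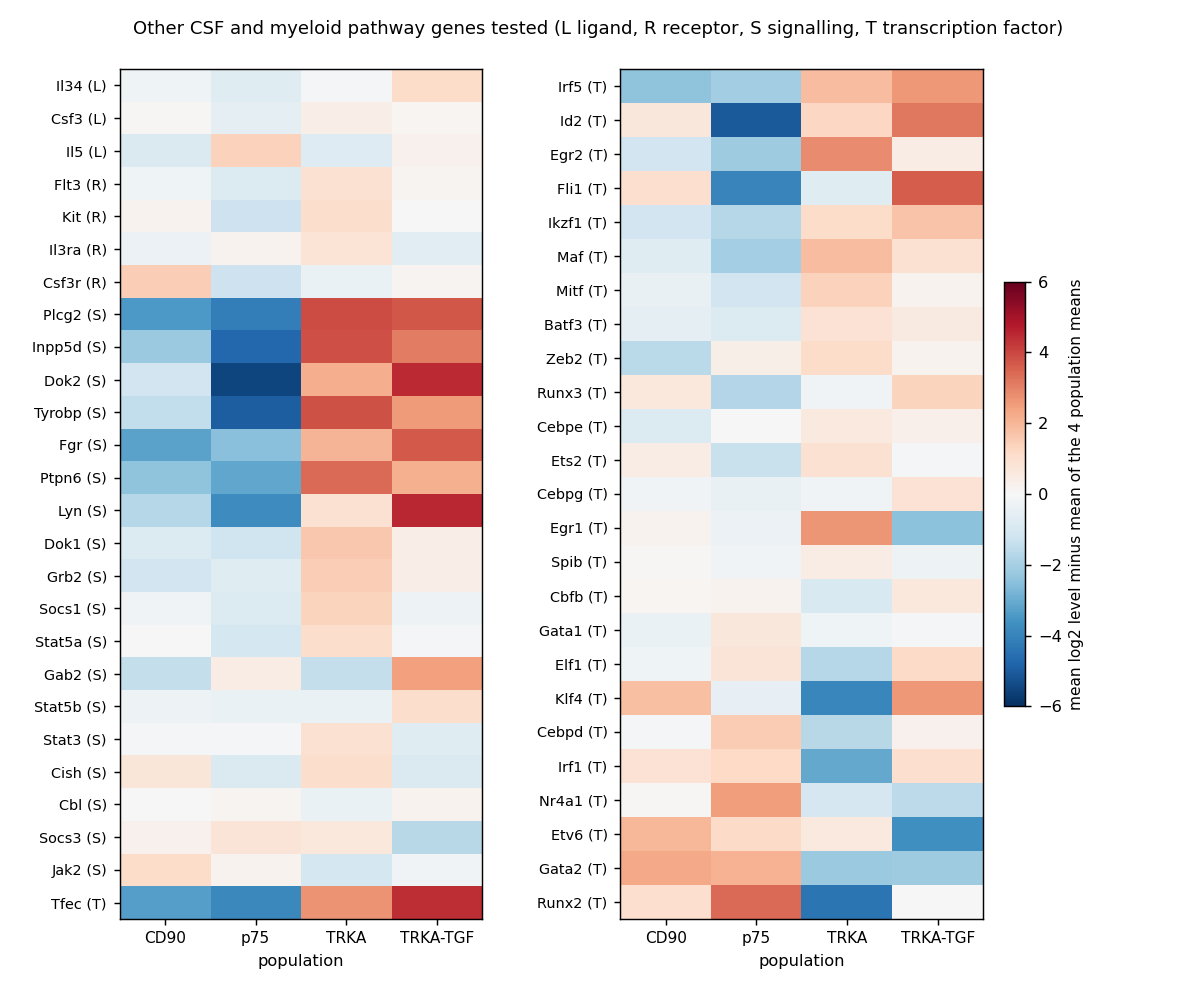
Mean level in each population of 51 of the 53 other genes tested (n = 4 arrays), as log2 difference from the mean of the 4 population means, red for higher and blue for lower. Letters after the gene give its role; Egr1 is red in TRKA (4.18 before centring) and blue in TRKA-TGF (−0.91).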

How the data were processed

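The scanner files deposited by the authors hold spot intensities on a linear scale, and the processed signal is background-subtracted, per the file headers. RNA was bound to magnetic beads and its cDNA amplified by a global PCR before Cy3 labelling, per the labels' protocols; such amplification can widen differences of scarce transcripts. The headers name Feature Extraction 10.7.3.1, whereas the submitters' processing notes name version 10.5. Each array held 58717 spots that were not controls, and 0 spots were saturated. The members and lists were chosen with earlier results of these data known.

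The log2 of the processed signal minus the array's 75th percentile was computed, spots marked as outliers were left out, and spots of a probe were averaged. Probes well above background on at least 4 of 16 arrays were kept, and a gene was represented by its brightest kept probe. limma 3.58.1 in R 4.3.3 (with version 1.17.8 of data.table) fitted 1 mean per population to all arrays, with empirical Bayes moderation and Benjamini-Hochberg adjustment over 20571 genes. The fit was tested on simulated data with 200 changed genes, where each gene had the same spread in all populations. For TRKA versus p75 it called 24% of changes of 2 log2 units and 52% of those of 4. A missing call thus does not show equal levels. The number of arrays limits the precision. Named from the wider list were its ligands and receptors and, per comparison, up to 4 genes called in each direction with the smallest adjusted p; for each of the 9 genes, also the 3 genes of highest Pearson r. Some genes that these rules picked are not reported here. Positions are on rn4 as in the array files, and upstream sequences are from RefSeq on GRCr8.

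The log2 values deposited by the authors served as an alternative, and no source used here states how it was scaled or centred. These columns ran on a line of slope 1.00 against quantile-normalized log2 signals centred on each probe's median, with column medians of −0.03 to 0.19. This alternative thus nearly repeats quantile normalization, and the counts of alternatives given here include both. Other alternatives were normexp background correction (offset 50), quantile normalization, another percentile, other filters, outlier spots kept, the mean of a gene's probes, only the 2 groups compared, a variance trend, array weights, a replicate block and leaving out each array. Arrays with equal replicate numbers did not deviate together (r = −0.03 to 0.04 over 24 pairs, against −0.04 to 0.04 over 72 other pairs).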

Additional observations from a re-analysis of the deposited data

Results flagged for a closer look

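In 5 of 40 groups of 4 arrays tested, 10 probes in 4 populations, the highest or lowest array stood apart from the other 3 by more than the 95% limit for groups of that size. Chance flags about 1 in 20 groups, or 2 of 40. Csf2ra in CD90 replicate 2 was low at −2.79, beside 0.76 to 0.89 on the other CD90 arrays, and on the same array Spi1 was high at −2.65. Spi1 in p75 replicate 2 was high at −4.10. Irf8 in p75 replicate 4 was high at −4.48, the only p75 array on which it was well above background. The downstream Csf1r probe in CD90 replicate 1 was high at 1.44. Without these arrays in turn, the differences of Csf2ra, Spi1, Csf1r and Irf8 between either TRKA population and CD90 or p75 kept their direction and their call. For CD90 versus p75, Csf1r lost its call without CD90 replicate 1 (2.52, adjusted p = 0.0665 in limma) and Csf2ra became called without CD90 replicate 2 (1.22, adjusted p = 0.00619). Without that array the Csf2ra difference of −1.53 between TRKA-TGF and TRKA was called as well (adjusted p = 0.000261).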

How the results depend on the processing

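Across 12 alternatives that kept every array, the 27 called differences of the 9 genes kept direction and call in 317 of 324 fits and lost the call in 7. Leaving out 1 array kept 412 of 432 and lost 20. Where the array left out was of a population not compared, the difference was fixed and only its spread and adjusted p could move. The same holds for a replicate block, a variance trend and only the 2 groups compared. These counts thus hold many fits that could not change a direction. Uncalled differences became called in 23 of 324 fits and in 13 of 432 that left out an array. For CD90 versus p75, 2 of the 9 genes were called instead of 1 with normexp, quantile normalization, the authors' deposited log2 values and array weights, and 0 to 2 when an array was left out (0 without CD90 replicate 1 or p75 replicate 2, 3 or 4, and 2 without CD90 replicate 2 or TRKA replicate 4). The list of other genes then gave 10 calls with normexp, 9 with array weights and 7 with quantile normalization, the detected-probe percentile and the authors' deposited log2 values, instead of 4. For TRKA-TGF versus TRKA that list gave 8 calls with array weights, not 13, and 7 to 14 when an array was left out (7 without TRKA-TGF replicate 1, 8 without TRKA-TGF replicate 2 or 3). With array weights, TRKA-TGF versus p75 gave 7 of the 9 genes (not 4) and 5017 of all genes (not 3109), and TRKA-TGF versus CD90 gave 4693 of all genes (not 3069). The cause was not tested.

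Reversals, all of uncalled differences but one, were Cebpa in CD90 versus p75 at 0.12 (normexp), Runx1 in TRKA versus p75 at −0.13 and Irf8 in TRKA-TGF versus TRKA at 0.69 (detected-probe percentile), and the called Grb2 in TRKA-TGF versus TRKA at 0.46 (mean of its probes). Leaving out an array gave, for CD90 versus p75, −0.61 to 0.28 for Cebpa, −0.045 to 0.56 for Cebpb, −0.0048 to 1.22 for Csf2ra and −0.51 to 0.36 for Spi1. For TRKA-TGF it gave −0.28 to 0.040 for Csf1 and −1.38 to 0.23 for Runx1 versus CD90, and −0.12 to 0.38 for Csf1r, −1.22 to 0.48 for Irf8 and −0.12 to 1.67 for Spi1 versus TRKA.

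The detected-probe percentile moved the median of all genes by −0.89 in TRKA versus p75, −0.98 in TRKA versus CD90 and 0.76 in TRKA-TGF versus TRKA. The share of calls that were higher was 52.7%, 52.3% and 51.1% in these comparisons, 20.7%, 18.7% and 82.9% with that percentile, 66.6%, 62.3% and 39.1% with normexp and 60.3%, 59.8% and 39.9% with quantile normalization. The labels do not say whether the numbers pair the samples, and the main fit did not use them. With a replicate block 7, 7, 2, 5, 5 and 1 of the 9 genes were called in TRKA versus p75, TRKA versus CD90, TRKA-TGF versus TRKA, p75 and CD90, and CD90 versus p75. The low signal of the TRKA arrays limits what can be said of Csf1 and Cebpa there.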

Other observations

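For each of the 9 genes, the 3 genes whose levels ran closest to it over the 16 arrays were listed, as a description of arrays that share populations, slides and scaling. Closest to Csf1r were Fcer1g (r = 0.982), the signalling chain of Fc receptors, the lysosomal protease gene Ctss (0.979) and Gpnmb (0.977). Fcer1g stood at 6.94 ± 0.20 in TRKA and 6.65 ± 0.10 in TRKA-TGF (SD, n = 4), with 3.84 ± 0.13 in CD90 and 1.94 ± 0.66 in p75. Closest to Csf2ra were Apobec1 (0.980), C8h19orf38 (0.976) and Laptm5 (0.967), a lysosomal membrane protein gene of blood cells. Laptm5 stood at 6.89 ± 0.04 in TRKA and 4.92 ± 0.08 in TRKA-TGF. Csf2rb ran closest to Gpsm3 (0.938), Rp9 (0.932) and the myeloid lectin gene Clec12a (0.927), and Spi1 to Ms4a10 (0.960), Tmie (0.950) and Gdf3 (0.935). For Irf8 the list was Arhgap9 (0.953), LOC681325 (0.943) and Tmem37 (0.936).

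Of the other 4 genes, Cebpb ran closest to Tmem109 (0.974), and its list also held Pabpc1 (0.961), the poly(A)-binding protein gene, which stood at 6.04 ± 0.16 in TRKA and at 4.70 to 4.97 elsewhere. Cebpa ran closest to Or5h17c (0.942), an olfactory receptor gene that stayed at −2.32 or below in every population mean, Arpc2 (0.909) and Or52ad1 (0.904). Csf1 ran closest to Yae1l1 (0.953), Dclre1c (0.937) and Taf15 (0.936), of which Yae1l1 and Dclre1c were well above background on 1 TRKA array each. Runx1 had no close neighbour, with Hapstr1 (0.764), Rtn2 (0.75) and Zbtb43 (0.743).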
